A study of Solanum pimpinellifolium with 6 samples.

Results

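The miR162, miR168 and miR403 families hold 15 of the 629 distinct miRNA sequences listed for leaves of the wild tomato LA2093 (Solanum pimpinellifolium), in 18 of 759 entries. They were chosen by the family number in their name, with no further digit after it, which gives 5 miR162, 7 miR168 and 3 miR403 sequences. Of the 233 cleavage sites listed from the degradome, 3 belong to these families, in transcripts named AGO1, AGO2 and DCL1. LA2093 tolerates heat, and its second fully expanded leaf was sampled at 8 h of growth at 26/18 °C day/night (NT, the normal temperature), 33/33 °C (MET, moderately elevated) or 40/40 °C (AET, acutely elevated). Plants in the heated groups also received extra daily irrigation, which the paper says was meant to hold soil moisture and conductivity normal and avoid drought. By design, heat and the extra watering cannot be told apart. Leaves of 5 seedlings were mixed per replicate, and which replicates entered a library is not stated. Each temperature has 1 small RNA library and 1 library of degradome tags, without replicates, so that no difference has a replicate check, every test compares 2 libraries and not 2 temperatures, and intervals cover counting error only.

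These miRNAs act on the silencing machinery itself. DCL1 is the Dicer-like enzyme that cuts plant miRNA hairpins into a duplex, AGO1 is the Argonaute that keeps the guide strand of most miRNAs and discards the passenger strand, and AGO2 is an Argonaute best known in antiviral silencing. From other plants, chiefly Arabidopsis, miR162 is known to cleave the DCL1 transcript, miR168 the AGO1 transcript and miR403 the AGO2 transcript. Each family thus acts on a gene of small RNA production or use.

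The sequences below carry the comparisons that follow. They are the abundant strand and its partner from each hairpin, and the variants discussed later, written 5′ to 3′ with bases 2 to 8 (the seed) in capitals.
spi-miR168a-5p: tCGCTTGGtgcaggtcgggac
spi-miR168a-5p_ath: tCGCTTGGtgcagatcgggac
spi-miR168a-3p: cCTGCCTTgcatcaactgaat
spi-miR168b-3p: cCCGCCTTgcatcaactgaat
spi-miR168a-3p_ath: cCCGCCTTgcatcaactgaatt
spi-miR162: tCGATAAAcctctgcatccag
spi-miR162a-3p_ath: tCGATAAAcctctgcatccagt
spi-miR162a-p3_stu: aAGCGATCgataaacctctgcatc
spi-miR162a-5p_stu: tGGAGGCAgcggttcatcgatc
spi-miR403-3p: cTAGATTCacgcacaagctcg
spi-miR403-3p_ath: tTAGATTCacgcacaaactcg
spi-miR403-5p: cGTTTGTGcgtgaatctaac

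The 15 sequences had 8 different seeds. The miR168 5p sequences shared 1 seed over 3 sequences, and so did spi-miR162, spi-miR162a-3p_ath and spi-miR162a_lus. spi-miR168a-3p differs from spi-miR168b-3p by T3C, counted from 1 at the 5′ end with the base of spi-miR168a-3p first, which lies inside the seed. spi-miR162a-p3_stu overlaps spi-miR162 but starts upstream of it and has another seed.

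Both strands of 4 hairpins were among the 15 sequences. The hairpins are shown with their sequenced strands in capitals, since the ratio of these strands is compared between libraries below (n marks bases unresolved in the genome sequence; the sources used here do not name the genome build).
miR168a hairpin, chr8:558753-558911, plus strand: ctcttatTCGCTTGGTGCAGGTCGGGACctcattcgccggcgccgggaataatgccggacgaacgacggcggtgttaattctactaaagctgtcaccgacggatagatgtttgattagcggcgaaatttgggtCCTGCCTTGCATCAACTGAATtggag
miR168b hairpin, chr12:63569008-63569175, plus strand: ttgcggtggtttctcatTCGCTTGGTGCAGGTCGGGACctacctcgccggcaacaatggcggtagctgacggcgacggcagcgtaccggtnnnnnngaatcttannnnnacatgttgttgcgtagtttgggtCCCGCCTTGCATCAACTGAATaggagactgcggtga
miR162a hairpin, chr3:58491537-58491635, plus strand: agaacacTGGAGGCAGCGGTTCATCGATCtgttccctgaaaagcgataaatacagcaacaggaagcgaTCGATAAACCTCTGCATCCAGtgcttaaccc
miR403 hairpin, chr1:70879734-70879875, plus strand: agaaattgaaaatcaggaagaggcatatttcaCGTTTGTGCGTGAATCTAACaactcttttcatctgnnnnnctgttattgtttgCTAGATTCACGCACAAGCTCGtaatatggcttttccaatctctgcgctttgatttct

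Both miR168 hairpins release the same 5p strand, spi-miR168a-5p, and they are told apart only by their 3p strands. The authors list spi-miR162 on chromosome 6 (39463120 to 39463215, plus strand). Its letters are also in the chromosome 3 hairpin, which they list for spi-miR162a-5p_stu, and the pairing of these strands rests on that sequence match, so the spi-miR162 reads may come from either locus. Of the 15 sequences, 9 were found letter for letter in a hairpin of the study and 6 were not. The transcript reference of the study is that of cultivated tomato (Solanum lycopersicum), and the sources name no LA2093 genome. Positions and base differences are therefore those of the listed reference sequences and were not checked in LA2093.

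Over distinct sequences the miRNA list added up to 301702 raw reads (NT), 424963 (MET) and 394910 (AET). A single sequence, spi-miR166a, took 52.5% to 62.9% of them. Levels are given as normalized reads, which the authors made by multiplying all raw reads of a library with the same factor (NT 1.33, MET 0.833, AET 0.898), so that 1 normalized read does not stand for the same share of a library at each temperature. A sequence was called higher or lower where its normalized reads, set against all listed reads, gave p-values no higher than 0.05 by Fisher's exact test (two-sided) and by chi-square, together with a log2 ratio of 1 or more in size.

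In all 3 libraries spi-miR168a-5p was the most abundant sequence of the 3 families, followed by spi-miR162 and then spi-miR403-3p. spi-miR168a-5p had 9154 (NT), 6394 (MET) and 8439 (AET) normalized reads, and ranked 7 among the 629 sequences in each. spi-miR162 had 2881, 3856 and 4039 normalized reads in the same order, with ranks of 9, 10 and 8. spi-miR403-3p had 974, 1150 and 1096 normalized reads, with ranks of 23, 24 and 19. The exact Poisson intervals of these values (95%) were narrow, from 8939 to 9373 for spi-miR168a-5p and from 905 to 1048 for spi-miR403-3p in the NT library. The AGO1-directed strand was thus lowest in the MET library, while the DCL1-directed and the AGO2-directed strands were lowest in the NT library.

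**Figure D1:**
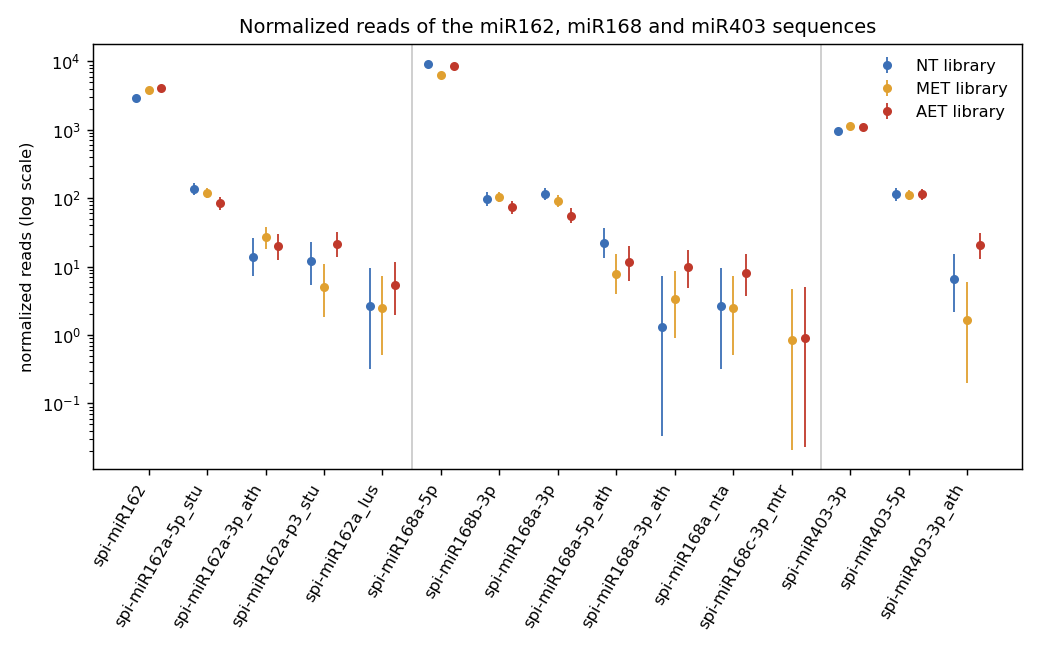
Normalized reads (vertical axis, log scale) of the 15 miR162, miR168 and miR403 sequences, with 1 point per library and exact 95% Poisson intervals of the raw reads as bars; a value of 0 is not drawn. spi-miR168a-5p, spi-miR162 and spi-miR403-3p stand far above the other sequences of their families in each library.

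The other 12 sequences were rare by comparison. The partner strands spi-miR162a-5p_stu, spi-miR168a-3p, spi-miR168b-3p and spi-miR403-5p lay between 55.2 normalized reads (spi-miR168a-3p, AET) and 138 (spi-miR162a-5p_stu, NT). Of the 15 sequences, 11 reached 10 normalized reads in a library. The variants lay between 0 (spi-miR168c-3p_mtr, NT) and 26.7 (spi-miR162a-3p_ath, MET) normalized reads. For that count of 0, the exact 95% Poisson interval reaches up to 4.90 normalized reads. The most abundant sequence held 94.5% to 96.9% of the miR162 reads, 96.8% to 98.2% of the miR168 reads and 89.0% to 91.0% of the miR403 reads.

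None of the 3 abundant strands reached a log2 ratio of 1 in any pair of libraries. Against NT, spi-miR168a-5p was lower in MET, with a log2 ratio of -0.52 (-0.56 to -0.47 at 95%, Fisher's exact p = 1.2e-63) and differed by -0.12 in the AET library (-0.16 to -0.07, Fisher's exact p = 0.0573). Against MET it was 0.40 higher in the AET library (0.36 to 0.44, Fisher's exact p = 1.36e-74). spi-miR162 was 0.42 higher in the MET library than in the NT library (0.35 to 0.49, Fisher's exact p = 9.05e-55) and 0.49 higher in the AET library (0.41 to 0.56, Fisher's exact p = 4.09e-77). spi-miR403-3p was 0.24 higher in MET (0.11 to 0.37, Fisher's exact p = 4.7e-09) and 0.17 higher in AET (0.04 to 0.30, Fisher's exact p = 2.17e-07) than in NT. These differences are small and their counting intervals are tight. The interval is that of the normalized reads themselves, while the test sets them against all listed normalized reads, whose sum differed between libraries, and the interval and the p-value can therefore point apart, as for AET against NT in spi-miR168a-5p.

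The sums over each family followed their abundant strand. Summed miR168 reads gave log2 ratios of -0.51 (MET) and -0.13 (AET) relative to NT, and of 0.38 between AET and MET. Summed miR162 reads gave 0.40, 0.45 and 0.06, and summed miR403 reads gave 0.21, 0.17 and -0.04. The size of these ratios depends on the scaling. Per valid read of each library in place of normalized reads, the miR168 sum gave -0.08 for MET against NT and 0.01 for AET against NT, whereas miR162 gave 0.82 and 0.59 and miR403 gave 0.63 and 0.31. The lower miR168 level in the MET library is therefore a statement about normalized reads, and per valid read it nearly vanished. With spi-miR166a left out of totals and scaling, the ratios for MET against NT moved the other way. The log2 ratio was then -0.81 for spi-miR168a-5p, 0.13 for spi-miR162 and -0.05 for spi-miR403-3p. The size of the spi-miR162 difference in MET thus depends on the scaling but stayed positive, while that of spi-miR403-3p changed sign. For AET against NT, leaving out spi-miR166a gave 0.37 for spi-miR162, 0.05 for spi-miR403-3p and -0.24 for spi-miR168a-5p.

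Ratios between sequences of the same library do not depend on the scaling. For each raw read of spi-miR162 there were 3.18 raw reads of spi-miR168a-5p in NT (exact binomial 95% interval 3.03 to 3.34), 1.66 in MET (1.60 to 1.72) and 2.09 in AET (2.02 to 2.17). For each read of spi-miR403-3p there were 9.39, 5.56 and 7.70 reads of spi-miR168a-5p. The balance between the AGO1-directed and the DCL1-directed strand was thus shifted toward the latter in both heated libraries, most in MET. The intervals of the 3 libraries do not overlap, but they cover counting error only. How often other pairs of listed sequences differ as much was not tested, so the shift is not shown to be particular to these strands. For each read of spi-miR403-3p there were 2.96 reads of spi-miR162 in NT (2.72 to 3.22), 3.35 in MET (3.16 to 3.56) and 3.68 in AET (3.46 to 3.93), and here the intervals of neighbouring libraries overlap while those of NT and AET do not.

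Of the 15 sequences, 1 was called for MET against NT (lower), 3 for AET against NT (2 higher and 1 lower) and 2 for AET against MET (both higher). Over all 629 sequences, 11.8%, 21% and 20.3% were called in these comparisons. By direction, 5.09% were called lower for MET against NT, 12.7% higher and 8.27% lower for AET against NT, and 11.3% higher for AET against MET. The members' shares were near or below this background, so the counts are no result about the 3 families. The median log2 ratio of the members with reads in both libraries was -0.09, 0.33 and 0.11, beside -0.09, 0.09 and 0.02 over all such sequences. A total of 5 of the 6 calls fell on variants with fewer than 30 raw reads in any library.

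**Figure D2:**
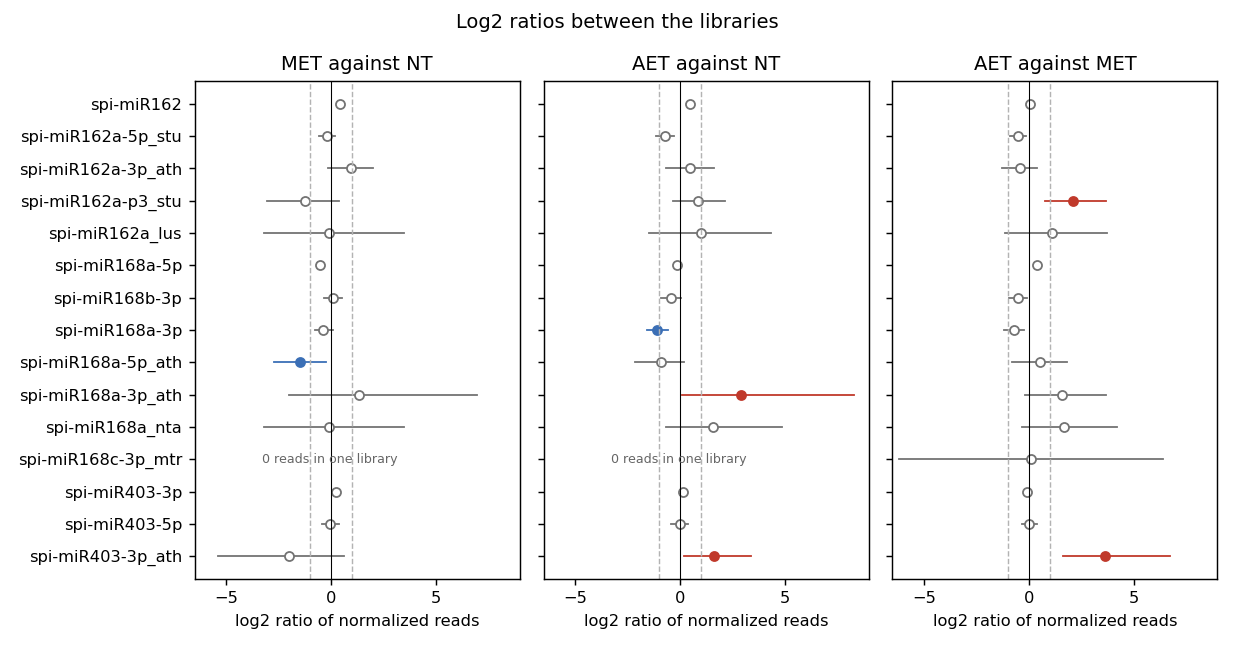
Log2 ratios of normalized reads (horizontal axes) of the 15 sequences in the 3 pairs of libraries, with exact 95% intervals as lines; filled red points were called higher, filled blue points lower and open points not called, and the dashed lines mark log2 ratios of -1 and 1. The abundant strands sit near 0 with short intervals, and the called points with wide intervals are variants with few reads.

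The called partner strand was spi-miR168a-3p, from the chromosome 8 hairpin. It had 116 normalized reads in NT, 90.4 in MET and 55.2 in AET. For AET against NT the log2 ratio was -1.07 (-1.55 to -0.57, Fisher's exact p = 8.35e-05). spi-miR168b-3p, the partner strand from chromosome 12, had 98.4, 105 and 73.2 normalized reads and was not called in any pair, with a log2 ratio of -0.43 for AET against NT (-0.89 to 0.06). The fall of spi-miR168a-3p lies close to the threshold, and per valid read its log2 ratio was -0.93.

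Since the strands of a hairpin are counted in the same library, the ratio of guide (here the more abundant strand) to passenger is free of scaling. Raw reads of both strands in both libraries entered Fisher's exact test (two-sided), with Benjamini-Hochberg adjustment over the 81 hairpins of the whole list with both strands and at least 20 raw reads. The ratio changed in 15 hairpins for MET against NT, in 22 for AET against NT and in 31 for AET against MET, which is 18.5%, 27.2% and 38.3% of the 81. Of the 4 hairpins of the 3 families, 2, 2 and 3 changed. Members of the same family are not independent here, because both miR168 hairpins use the reads of spi-miR168a-5p. For miR168a, miR168b and miR162 the guide reads may also come from another locus. The output of that locus enters these ratios, which are thus not the strand balance of a single hairpin.

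The miR162 ratio rose from NT to MET to AET. Per read of spi-miR162a-5p_stu there were 20.8 reads of spi-miR162 in NT (exact binomial 95% interval 17.1 to 25.6, 2167 and 104 reads), 31.9 in MET (27.0 to 37.9, 4627 and 145 reads) and 47.9 in AET (39.0 to 59.3, 4498 and 94 reads). The intervals of the 3 libraries do not overlap. This pair is not among those the authors list, who place these strands at different loci, so with their pairs there is no miR162 value and no call. The change was 1.53-fold for MET against NT (log2 0.61, Fisher's exact test with adjusted p = 0.0117), a log2 of 1.20 for AET against NT (adjusted Fisher's exact p = 1.88e-07) and of 0.58 for AET against MET (adjusted Fisher's exact p = 0.00972). In normalized reads, the guide was higher in both heated libraries, while the passenger had 138, 121 and 84.4 normalized reads in NT, MET and AET.

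The miR168 ratios were highest in the AET library. For each read of spi-miR168a-3p there were 79.1 reads of spi-miR168a-5p in NT (64.1 to 98.9), 70.4 in MET (58.3 to 85.8) and 152 in AET (118 to 198). The AET value was 1.92-fold above NT (log2 0.94, adjusted Fisher's exact p = 0.000834) and 2.15-fold above MET (log2 1.11, adjusted Fisher's exact p = 8.72e-06), and NT and MET did not differ beyond counting error (log2 -0.17, 95% interval -0.60 to 0.25, adjusted Fisher's exact p = 0.789). For each read of spi-miR168b-3p there were 93.1 reads of spi-miR168a-5p in NT (74.0 to 119), 60.9 in MET (51.1 to 73.2) and 115 in AET (92.2 to 144). This ratio fell from NT to MET (log2 -0.61, adjusted Fisher's exact p = 0.0264), was higher in AET than in MET (log2 0.91, adjusted Fisher's exact p = 5.01e-05) and did not pass the test for AET against NT (log2 0.30, 95% interval -0.18 to 0.77, adjusted Fisher's exact p = 0.428). With both partner strands summed, there were 42.8, 32.8 and 65.7 reads of spi-miR168a-5p per partner read in NT, MET and AET.

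The miR403 ratio did not pass the test in any pair. There were 8.52 reads of spi-miR403-3p per read of spi-miR403-5p in NT (6.81 to 10.8), 10.2 in MET (8.56 to 12.3) and 9.61 in AET (8.00 to 11.6). The log2 change was 0.17 for AET against NT (95% interval -0.26 to 0.60, adjusted Fisher's exact p = 0.658), which leaves room for a change up to about the size seen for neighbouring pairs of libraries in miR162. Over all 81 hairpins, the median log2 change of the more abundant strand over the other was -0.06 (MET) and 0.30 (AET) against NT and 0.11 for AET against MET, so the miR162 and miR168a changes in the AET library stand beside a median that was itself above 0.

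**Figure D3:**
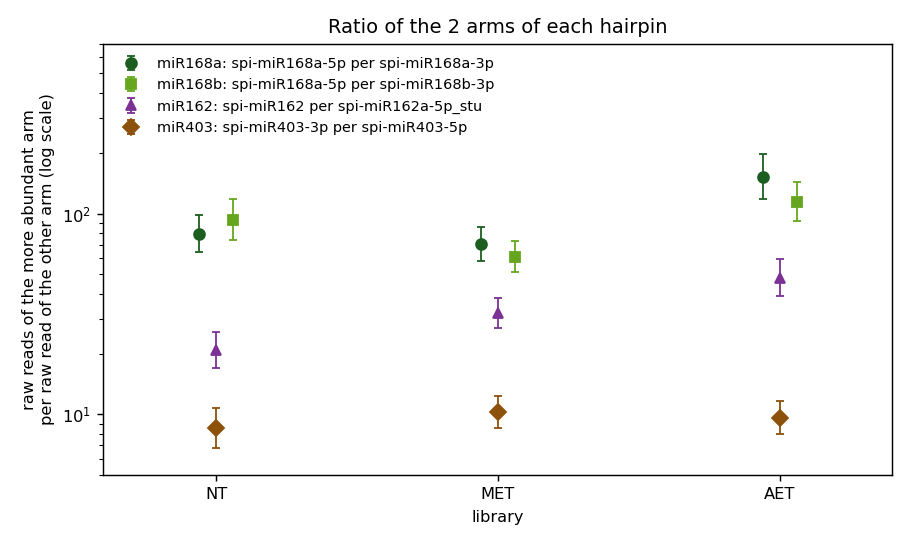
Raw reads of the more abundant strand per raw read of its partner (vertical axis, log scale) in the NT, MET and AET libraries for the 4 hairpins, with exact binomial 95% intervals as bars. The miR162 ratio climbs from 20.8 to 31.9 to 47.9, the miR168 ratios are highest in AET, and the miR403 ratio lies between 8.52 and 10.2. Reads of spi-miR168a-5p and spi-miR162 may also come from another locus than the hairpin named.

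Variants took small shares of the reads of their arm, with 1 exception, which lay on the arm of a partner strand with few reads. On the miR168 5p arm, spi-miR168a-5p_ath, which differs from spi-miR168a-5p by G14A (position from 1 at the 5′ end, base of spi-miR168a-5p first) and matches no hairpin of the study exactly, had 16.5 raw reads in NT, 9.5 in MET and 13 in AET. It was called lower for MET against NT (log2 -1.47, 95% interval -2.73 to -0.23, Fisher's exact p = 0.0268), which is not kept after Benjamini-Hochberg adjustment over all sequences, and per valid read the log2 ratio was -1.05 and was not called. The 5p variants together made up 0.268%, 0.163% and 0.234% of that arm.

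The exception was the 3p arm counted with spi-miR168b-3p. spi-miR168a-3p_ath is spi-miR168b-3p with 1 more base at the 3′ end, which differs from the miR168b hairpin by A22T (position from the 5′ end of the miRNA, hairpin base first). The miR168a hairpin has that T, and there the sequence differs by T3C only. With 1 difference to each hairpin, the sequence does not settle which of them it comes from. The authors list it on chromosome 12, and the shares here count it with spi-miR168b-3p. spi-miR168a-3p_ath had 1 raw read in NT, 4 in MET and 11 in AET, or 1.33%, 3.07% and 11.8% of the arm, with exact Clopper-Pearson 95% intervals of 0.0338% to 7.21%, 0.838% to 7.63% and 5.99% to 20.0%. These intervals overlap, and the arm held only 75 (NT), 130.5 (MET) and 93.5 (AET) raw reads. The variant was called higher for AET against NT (log2 2.89, 95% interval 0.11 to 8.32, Fisher's exact p = 0.00436). This rests on 11 reads against 1, and a filter of 10 normalized reads in a library removes the sequence and with it the call. spi-miR168c-3p_mtr, which carries a further T (G23T), had 0, 1 and 1 reads. Another extended form, spi-miR168a_nta, extends spi-miR168a-5p with C21T and C22T against the hairpins and had 2, 3 and 9 reads, and it was not called in any pair.

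On the miR162 3p arm, the 22-nt form spi-miR162a-3p_ath, whose additional T is also in the hairpin, had 10.5, 32 and 22 raw reads, or 0.480%, 0.686% and 0.484% of the arm. Its log2 ratio for MET against NT was 0.93 and not called, and per valid read it was 1.36 and called higher. spi-miR162a_lus differs from the hairpins by T22C and G23A and had 2, 3 and 6 raw reads. spi-miR162a-p3_stu, the 24-nt sequence with the shifted 5′ end, had 9 raw reads in NT, 6 in MET and 24 in AET, and was called higher for AET against MET (log2 2.11, 95% interval 0.78 to 3.69, Fisher's exact p = 0.000819). All variants together made up 0.982%, 0.878% and 1.14% of the arm, with overlapping intervals.

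spi-miR403-3p_ath differs from spi-miR403-3p by C1T and G17A (base of spi-miR403-3p first) and is listed at another locus, on the minus strand of chromosome 2 (33788661 to 33788718). This variant matches no hairpin of the study exactly, so its sequence does not tie the reads to that locus. It had 5 raw reads in NT, 2 in MET and 23 in AET, or 0.678%, 0.145% and 1.85% of the 3p reads of the family. It was called higher in AET against NT (log2 1.64, 95% interval 0.21 to 3.39, Fisher's exact p = 0.00389) and against MET (log2 3.63, 1.61 to 6.76, Fisher's exact p = 3.05e-05). The abundant spi-miR403-3p had log2 ratios of 0.17 and -0.07 in the same comparisons. The chromosome 2 locus has a minimal folding free energy index of 0.5, the lowest of the loci listed for the 3 families, where the others have 0.7 to 0.9.

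Degradome reads are the 5′ ends of cut mRNAs, and a site is listed where such ends fall opposite the middle of a miRNA. The libraries held 11774232 (NT), 11471728 (MET) and 10853424 (AET) raw reads as derived from the deposited TPB values (tags at a site scaled to a fixed library total), and a listed site with tags had a median of 1 read in each. The level of the whole transcripts was not measured in these files, so more cleavage and more transcript cannot be told apart.

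AGO1 (Solyc06g072300.2.1), paired with spi-miR168a-5p and spi-miR168a-5p_ath at an alignment score of 4, had the most tags of the 3 transcripts. The reads at position 388 of the transcript, within the paired stretch from 377 to 397, numbered 5 in NT, 7 in MET and 10 in AET, which are 425, 610 and 921 TPB. It ranked 7, 5 and 6 among the 233 listed sites, and was 1 of 38 sites with tags in all 3 libraries. Its category was 2 in each library, meaning more than 1 read at the position, above the median of the covered positions of the transcript but below their maximum. The log2 ratio was 0.52 for MET against NT (95% interval -1.35 to 2.52, Fisher's exact p = 0.576) and 1.12 for AET against NT (-0.57 to 3.02, Fisher's exact p = 0.197), so a difference was not detectable at this depth. The same tags are listed for both miR168 sequences and cannot be assigned to one. The deposited annotation of this transcript reads iron transporter stabilizer SufD and polynucleotidyl transferase, and the name AGO1 is that of the target table.

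AGO2 (Solyc02g069260.2.1) was cut at position 3260, within 3249 to 3269. The alignment score, a penalty for mismatches, was 2.5 for spi-miR403-3p and 1 for the rare spi-miR403-3p_ath. There were 4 reads in NT, 1 in MET and 0 in AET. The AGO2 site was in category 1 in NT, where its reads reached the maximum of the covered positions of the transcript. The AGO1 site stayed below that maximum. In MET the AGO2 site was in category 4, and without tags in AET it had no category there. The difference between AET and NT did not pass the test (Fisher's exact p = 0.126), and the 95% interval of the log2 ratio reaches up to 0.72, so that a higher AET level is not excluded. DCL1 (Solyc10g005130.2.1), the target of miR162, had 1 read at position 3259 in NT, 0 in MET and 1 in AET, for spi-miR162, spi-miR162a-3p_ath and spi-miR162a_lus at scores of 2, 2.5 and 3. With 1 read a site is in category 4, the weakest, and no ratio can be read from it.

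**Figure D4:**
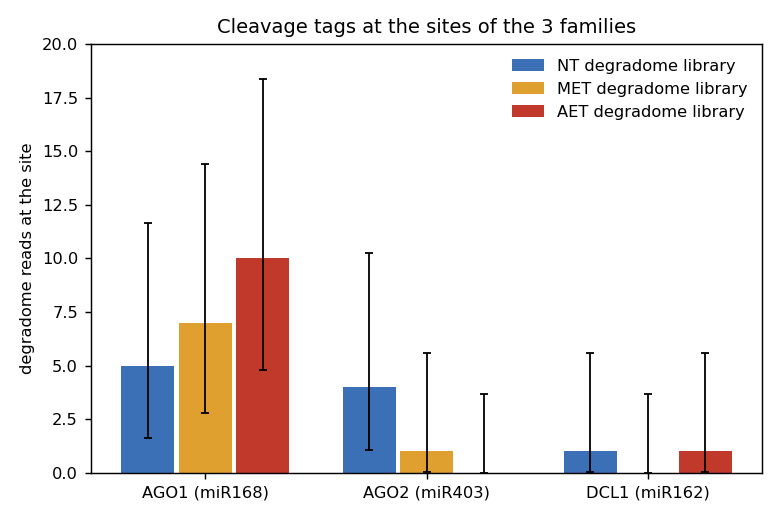
Degradome reads at the listed site (vertical axis) in AGO1, AGO2 and DCL1, with 1 bar per degradome library and exact 95% Poisson intervals. AGO1 has 5, 7 and 10 reads, AGO2 4, 1 and 0, and DCL1 1, 0 and 1, and the intervals of the libraries overlap at each site.

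None of the 3 sites was called in any pair of libraries. Of all 233 sites, 0.858% were called between MET and NT, 1.29% between AET and NT and 1.29% between AET and MET. The cut lay 9 nt before the 3′ end of the paired stretch in AGO1 and AGO2, as in 84.3% of the 362 listed miRNA and site pairs, and 10 nt before it in DCL1, as in 8.29%. For the DCL1 pairs the paired stretch of the transcript is 1 nt longer than the miRNA.

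Other genes of the silencing machinery were looked up in the target list. Of 34 symbols (AGO1 to AGO10, DCL1 to DCL4, RDR1 to RDR6, SGS3, HEN1, HYL1, SE, HST, HESO1, SDE3, SUO, CMT2, CMT3, DRM1, DRM2, NRPD1 and NRPE1), 4 were listed and 30 were not. The fourth was DRM2 (Solyc02g062740.2.1), a DNA methyltransferase of the RNA-directed methylation pathway, listed for spi-miR396a-5p and spi-miR396b with 1 read in NT and 0 in MET and AET. A gene that is not listed may still be present, since only transcripts with a predicted miRNA site and tags are in the list and names are those the authors gave.

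Among the other sequences with at least 100 normalized reads in each library (66 candidates), those with the log2 ratios (MET against NT, AET against NT) closest to spi-miR168a-5p were spi-miR166a (-0.44 and -0.34, distance 0.23), spi-miR398a-3p_stu (distance 0.28) and spi-miR166c-3p (distance 0.34). For spi-miR162 they were spi-miR167b-5p (0.42 and 0.39, distance 0.10), spi-miR1919c-5p (distance 0.12) and spi-miR6022 (distance 0.12). For spi-miR403-3p they were spi-miR396c-p3_nta (0.29 and 0.20, distance 0.06), spi-miR7983-p3_stu (distance 0.25) and spi-miR482c_stu (distance 0.25). Likeness here is the Euclidean distance of these log2 ratios over 3 libraries.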

How the data were processed

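Per the study's methods, the authors kept small RNA reads of 19 to 24 nt, removed other RNA classes and repeats, and matched the rest to miRBase with at most 1 mismatch. They deposited raw reads, handled as estimated counts since some values are not whole, and normalized reads, a score made by multiplying each library's raw reads with a single factor. For the degradome the authors deposited alignment scores, CleaveLand 3.0 categories and TPB, the tags at a site scaled to a fixed library total (also a score). These rest on iTAG transcripts of cultivated tomato. Deposited tables of the authors' fold changes and p-values were not used.

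Raw reads were rounded to whole numbers for arm ratios, shares (Clopper-Pearson), family sums and Poisson intervals. The call rule, on rounded normalized reads, follows the study's methods. Tags were divided by the value of 1 read, since 87.3% (NT), 90.6% (MET) and 97.3% (AET) of the values then lay within 0.01 of a whole number, and rounded. Strands of a hairpin were the most abundant listed sequence on each side of its middle, taken from the study's precursor list. Members, gene lists and tests were chosen with earlier results of these data known. Named items were the 15 sequences, their sites and the 3 sequences of most similar pattern for each abundant strand. Tests were checked on simulated data with large known changes and counting error only. Smaller changes, low counts and variation between libraries were not covered by that check. Alternatives were other totals and scalings, adjusted p-values, no fold threshold, a filter of 10 normalized reads, other strand pairings and other denominators. Python 3.11.15, scipy 1.17.1, numpy 2.4.6 and pandas 2.3.3 were used. No sequence of the target transcripts was used.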

Additional observations from a re-analysis of the deposited data

How the results depend on the processing

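No paired analysis was possible because each temperature had 1 library, and for the same reason no replicate could be left out. The count of called sequences of the 3 families for MET against NT was 2 without spi-miR166a in totals and scaling, 0 with adjusted p-values and 5 with no fold threshold. The filter of 10 normalized reads left 2 of 3 called for AET against NT, since spi-miR168a-3p_ath fell below it. With no fold threshold the count was 6 for AET against NT and 7 for AET against MET. Over all sequences, adjusted p-values left 39 of 74 (MET against NT) and 84 of 128 (AET against MET) called. Per valid read, the family sums gave log2 ratios of 0.82 (MET and NT), 0.59 (AET and NT) and -0.23 (AET and MET) for miR162, in the same order -0.085, 0.011 and 0.10 for miR168, and 0.63, 0.31 and -0.32 for miR403. With the strand pairs as the authors list them, 1 hairpin in place of 2 changed for MET against NT, 1 in place of 2 for AET against NT and 2 in place of 3 for AET against MET, because spi-miR162 is then not paired with spi-miR162a-5p_stu. With both miR168 partner strands summed, chosen after the data were seen, the log2 change for MET against NT was -0.38 (Fisher's exact unadjusted p = 0.0106). Cutting reads to the whole number below, unadjusted p-values and no minimum of reads changed no call on these 4 hairpins, and neither mapped reads as totals nor dropping the fold threshold gave a call on the 3 sites. Depth limits the variants, with at most 32 raw reads in a library, and the degradome sites, with at most 10.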
